A study of Homo sapiens with 8 samples.

Results

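HCl3, a population of BEAS-2B cells grown out after a nickel exposure had ended, was compared with Ni-E, BEAS-2B cells that were still in nickel. The comparison was set by the sample labels and took 4 of the 8 RNA-Seq libraries of the series, 2 of HCl3 and 2 of Ni-E. BEAS-2B is an immortalised line made from normal human bronchial epithelium. Ni-E cells had spent 6 weeks in medium with NiCl2 at 100 µM, and their RNA was taken with the metal present. HCl3 cells had received the same 100 µM for the same 6 weeks, after which colonies were picked from single cells and grown up without nickel. How long HCl3 cells had been free of nickel was not given by the labels. The labels describe HCl3 in the words also used for Ni-W, the washed-out population that the study followed, and whether the 2 HCl3 libraries came from 1 colony was not stated. HCl3 and Ni-E therefore differed in the presence of nickel and in descent from a picked colony against an uncloned culture. Time in culture differed as well, since HCl3 cells were grown on after the exposure had ended. The experiment number also differed, at 2 for both Ni-E libraries and 3 and 4 for the HCl3 libraries. These differences cannot be told apart in any result given here.

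Nickel can take the place of iron in the iron- and oxoglutarate-dependent dioxygenases. These enzymes include the prolyl hydroxylases that mark hypoxia-inducible factor (HIF) for destruction, so soluble nickel is known as a chemical mimic of hypoxia. ATF4 is a transcription factor that switches on amino acid synthesis and transport when a cell is short of amino acids or under protein stress. In lung epithelium, epithelial-mesenchymal transition (EMT) is the programme in which cells gain vimentin, fibronectin and collagens and loosen their junctions, and TGF-beta is its best known inducer.

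The study's methods speak of 2 biological replicates, while the labels do not say that the libraries of a group came from separate cultures. The 4 libraries held between 33985930 and 38462224 reads assigned to genes, and the 2 HCl3 libraries were the deeper ones. The level of each gene was the deposited RPKM, which divides its reads by transcript length and library size. Replicates correlated at 0.994 in HCl3 and 0.990 in Ni-E, and libraries of different groups at 0.946 to 0.951. The spread between replicates, given as the biological coefficient of variation, was 0.0451 in HCl3 and 0.0952 in Ni-E. Of 7 markers of the bronchial line, 5 averaged at least 1 RPKM in both groups, with summed levels of 801 and 586 RPKM in Ni-E and 951 and 1012 in HCl3. Markers of other cells were partly present. Of 9 airway basal markers, 3 averaged at least 1 RPKM in both groups (summed levels 20.2 and 33.6 RPKM in Ni-E, 39.8 and 39.9 in HCl3), while TP63 and DAPL1 were at 0. Of 9 alveolar markers this held for 2 in Ni-E and 3 in HCl3 (5.69 and 7.24, 13.2 and 12.2 RPKM), with SFTPA1, SFTPB and SFTPC at 0, and of 9 leukocyte markers for 2 in both (22.9 and 18.7, 18.6 and 20.5 RPKM), with CD3E of T lymphocytes at 0. No ciliated, endothelial, club or goblet marker averaged 1 RPKM, and 7 of 8 club and goblet markers were at 0. The part of such cells in the results was not tested. In such bulk RNA, fewer cells of a kind and less RNA per cell cannot be told apart.

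HCl3 and Ni-E cells differed in a large share of their transcriptome, and the larger changes were mostly gains in HCl3. DESeq2 tested 15603 genes, and a gene was called where its adjusted P value was under 0.05 and its level differed at least 1.5-fold. By this rule 2742 genes, 17.6% of those tested, differed. Of these, 1657 were higher in HCl3 (10.6% of genes tested) and 1085 were lower (6.95%). A difference of 4-fold or more was seen for 559 of the genes that were higher and 105 of those that were lower. In 99 of the higher genes no read was counted in either Ni-E library, while 31 of the lower genes had no read in either HCl3 library. At any size of change, 6022 genes had an adjusted P value under 0.05. The libraries of the 2 groups did not overlap for 75.2% of the genes tested, nor for any of the 2742 called. The median log2 fold change over all tested genes was 0.01, a value near 0 that follows from the scaling of the libraries. Without HCl3 replicate 1 the count of called genes fell to 1755, with 999 higher and 756 lower, and without HCl3 replicate 2 it was 1949, with 1048 higher. The plot of change against level shows that many of the largest gains belonged to genes that were near 0 in Ni-E.

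**Figure D1:**
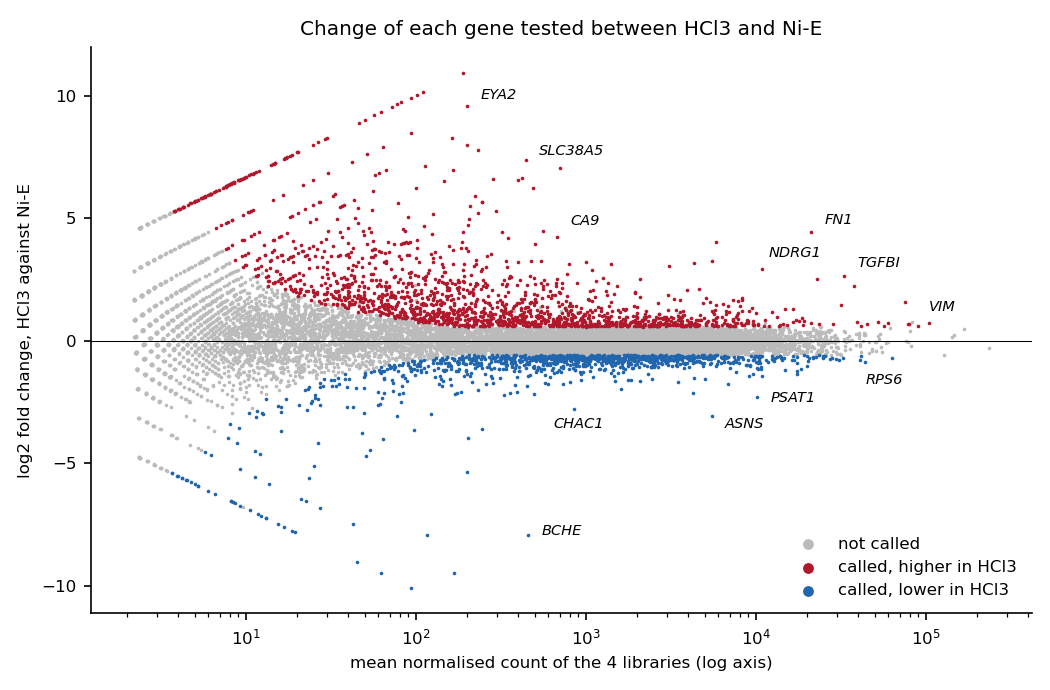
Log2 fold change of each tested gene, HCl3 against Ni-E (vertical axis), against its mean normalized count over the 4 libraries (horizontal log axis). Each point is 1 gene, red where it was called higher in HCl3 (1657 genes), blue where lower (1085) and grey where not called. Labelled genes are described in the text, and the cloud of grey points is centred near 0.

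Among well covered genes, the largest gains in HCl3 were of genes nearly absent from Ni-E. EYA2 (hg19 chromosome 20, 45523263 to 45817492, plus strand), a transcriptional coactivator with phosphatase activity, was at 0 and 0.02 RPKM in Ni-E and 3.69 and 3.75 in HCl3. Only 1 read of EYA2 was counted in Ni-E, which made the ratio 764-fold with a 95% counting interval from 137 to 30223. MARK1, a microtubule-affinity regulating kinase, rose from 0.04 and 0.03 to 2.9 and 2.81 RPKM (log2 fold change 6.61 ± 0.48, adjusted P = 3.6e-41). SLC38A5, a transporter of glutamine and other neutral amino acids, rose from 0.05 and 0.08 to 10.98 and 11.06 RPKM (log2 fold change 7.39 ± 0.49, adjusted P = 5.66e-50), and SLC12A7, a potassium-chloride cotransporter, from 0.03 and 0.06 to 6.38 and 6.83 RPKM (log2 fold change 7.06 ± 0.35, adjusted P = 9.93e-87). In each case both HCl3 libraries lay far above both Ni-E libraries. The co-chaperone DNAJA4, the GPI-anchored protein LYPD1, the ubiquitin ligase TRIM58 and the minor fibrillar collagen COL5A3 completed the 8 largest gains, with log2 fold changes of 6.25 for DNAJA4, 6.55 for COL5A3, 6.63 for LYPD1 and 7.77 for TRIM58.

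The largest losses joined a hydrolase with genes of amino acid supply. BCHE (hg19 chromosome 3, 165490692 to 165555253, minus strand), which encodes butyrylcholinesterase, was at 8.56 and 9.94 RPKM in Ni-E and 0.02 and 0.06 in HCl3 (log2 fold change -7.91 ± 0.54, adjusted P = 1.05e-46). The transcript LOC645638 fell from 13.8 and 22.6 to 1.56 and 1.46 RPKM (log2 fold change -3.60 ± 0.30), and DCDC2, a doublecortin-domain protein of the cilium, from 1.95 and 2.05 to 0.17 and 0.1 RPKM (-3.97 ± 0.31). The other 5 of the 8 largest losses were ASNS, CHAC1, PSAT1, CTH and SLC7A2, which all act on amino acids or glutathione. CTH, the cystathionine cleaving enzyme that makes cysteine, fell from 8.78 and 10.1 to 2.08 and 2.2 RPKM (log2 fold change -2.17 ± 0.17, adjusted P = 1.64e-33), and SLC7A2, a cationic amino acid transporter, from 1.93 and 1.62 to 0.47 and 0.32 RPKM (log2 fold change -2.20 ± 0.23, adjusted P = 8.41e-20).

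The amino acid and protein stress response was lower in HCl3. Of 27 genes of the ATF4 and unfolded protein response, 14 fell by DESeq2 and 0 rose, against 6.95% and 10.6% of all genes tested. The median log2 fold change of the list was -0.61. At an unadjusted P under 0.05, 3 members were higher, and edgeR called 0 of them. ASNS (hg19 chromosome 7, 97481429 to 97501854, minus strand), which makes asparagine, stood at 102 and 136 RPKM in Ni-E and at 14.7 and 14.5 in HCl3 (log2 fold change -3.04 ± 0.11, adjusted P = 1.15e-157). ASNS levels in untreated cells (UT) were 38.9 and 41.3 RPKM, so Ni-E lay above UT and HCl3 below it. PSAT1, of serine synthesis, fell from 181 and 189 to 39.4 and 37.5 RPKM (log2 fold change -2.28 ± 0.08, adjusted P = 1.48e-191). CHAC1, which degrades glutathione, fell from 24.2 and 23.1 to 3.32 and 3.82 RPKM (log2 fold change -2.76 ± 0.15, adjusted P = 2.68e-74). The factor ATF4 itself was at 177 and 188 RPKM in Ni-E and 52.5 and 57.4 in HCl3 (log2 fold change -1.74 ± 0.08, adjusted P = 4.7e-92), and its target TRIB3, a pseudokinase, at 74.7 and 66.0 and at 15.8 and 16.4 RPKM (log2 fold change -2.14 ± 0.10, adjusted P = 1.22e-100). The groups did not overlap for these 5 genes, as for all called genes. SLC7A11, the cystine importer, fell as well (log2 fold change -1.64 ± 0.11, adjusted P = 2.08e-51). The endoplasmic reticulum chaperones HSPA5 (201 and 198 RPKM in Ni-E, 209.7 and 216 in HCl3), HSP90B1 (293 and 308, 372 and 369.6) and CALR (753 and 793, 639.9 and 667) were not called.

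The promoter of ASNS is shown because ASNS had the largest change of a called list member with the motif searched. The motif was TGATGNAA, a core of the C/EBP-ATF response element to which ATF4 binds, sought on both strands in the window from 250 bases before to 50 bases after each gene's start in RefSeq, build GRCh38.p14. It occurred in 3.67% of all 27305 promoters, in 4 of 25 matched members of the stress list and in 3 of the 12 that had fallen. The 250 bases before the ASNS start, chr7:97872409-97872658 on the minus strand, are given 5′ to 3′ with the match in capitals. A match is a run of letters and was not tested as a binding site.
ASNS: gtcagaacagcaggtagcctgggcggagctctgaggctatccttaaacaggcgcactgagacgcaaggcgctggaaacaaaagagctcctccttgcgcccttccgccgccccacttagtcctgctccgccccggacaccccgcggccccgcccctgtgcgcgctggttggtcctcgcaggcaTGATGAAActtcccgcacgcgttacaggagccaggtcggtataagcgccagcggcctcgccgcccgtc

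More p53 targets fell than rose, and few cell cycle genes were called. Of 25 p53 targets, 8 fell and 1 rose, against 6.95% and 10.6% of all genes tested. The median log2 fold change of the targets was -0.47. CDKN1A, the p21 inhibitor of cyclin-dependent kinases, was at 189 and 123 RPKM in Ni-E, 62.8 and 63 in HCl3 and 25.9 and 22.9 in UT (log2 fold change -1.33 ± 0.33, adjusted P = 0.000249), and it was no longer called without HCl3 replicate 1 or 2. The 2 Ni-E libraries were far apart for CDKN1A, yet both exceeded HCl3. PMAIP1, a BH3-only inducer of apoptosis, fell from 40.7 and 34.4 to 20.2 and 17.8 RPKM (adjusted P = 1.41e-15), and SESN2, a stress sensor that restrains mTORC1, from 15.3 and 15.5 to 6.35 and 6.24 RPKM (log2 fold change -1.30 ± 0.11, adjusted P = 1.6e-31). SESN2 is also a member of the stress response list, so the p53 and stress lists are not independent. The 1 target that rose was GADD45B (log2 fold change 0.89 ± 0.12, adjusted P = 3.83e-12). Of 8 CDK inhibitors, CDKN1A fell, CDKN2C rose (log2 fold change 0.69 ± 0.12, adjusted P = 8.75e-08) and CDKN1B, CDKN1C, CDKN2A, CDKN2B, CDKN2D and CDKN3 were not called. The most abundant of these, CDKN2A, was at 172 and 194 RPKM in Ni-E and 143 and 151 in HCl3. Of 39 cell cycle genes 1 rose, the retinoblastoma gene RB1 (log2 fold change 0.72 ± 0.08, adjusted P = 2.48e-18), and 1 fell. A further 18 cell cycle genes had an adjusted P under 0.05 by DESeq2 at less than 1.5-fold. RB1 lies in a 10 Mb window of chromosome 13 with a median of 0.48 on the log2 scale, and it was not called after that median was subtracted. Without Ni-E replicate 2, the cell cycle list had 2 genes higher and 3 lower and the p53 list 2 higher and 10 lower, and without Ni-E replicate 1 CDKN2C lost its call.

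Many hypoxia-inducible genes were higher in HCl3, the cells without nickel. Of 27 tested members 17 rose by DESeq2 and 0 fell, against 10.6% and 6.95% of all genes tested. The median log2 fold change of the members was 0.76. At an unadjusted P under 0.05, 3 members were lower, and edgeR called 0 lower. CA9 (hg19 chromosome 9, 35673915 to 35681154, plus strand), carbonic anhydrase IX of the cell surface, stood at 0.62 and 1.58 RPKM in Ni-E and at 20.1 and 21.4 in HCl3 (log2 fold change 4.23 ± 0.61, adjusted P = 5.05e-11), with 0.81 and 0.5 in UT. NDRG1, a stress-responsive differentiation gene, rose from 17.9 and 22.8 to 155.44 and 154.72 RPKM (log2 fold change 2.92 ± 0.10, adjusted P = 2.55e-193), and EGLN3, a HIF prolyl hydroxylase that HIF itself induces, from 0.68 and 0.72 to 3.35 and 3.66 RPKM (log2 fold change 2.31 ± 0.25, adjusted P = 2.64e-19). Both HCl3 libraries exceeded both Ni-E libraries for each of the 3 genes, as for all genes called higher. LOX, which cross-links collagen, rose from 8.26 and 8.52 to 38.4 and 34.6 RPKM (log2 fold change 2.12 ± 0.09, adjusted P = 4.46e-119). PLOD2, a collagen lysyl hydroxylase, rose as well (log2 fold change 0.76 ± 0.07, adjusted P = 1.53e-23). VEGFA, the vascular growth factor, was an exception at 13.0 and 12.7 RPKM in Ni-E and 10.7 and 9.51 in HCl3 and was not called, as was DDIT4, an mTORC1 inhibitor, at 34.3 and 33.5 and at 26.6 and 25.6 RPKM. In UT cells these 2 genes were at 5.02 and 5.21 and 11.4 and 7.34 RPKM, below Ni-E. DDIT4 is also a member of the stress response list.

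Regulators of HIF moved up in part. Of 12 tested members, 5 rose and 0 fell by DESeq2 (0 lower at an unadjusted P under 0.05, and 0 by edgeR), with a median of 0.54. After window medians were subtracted 8 rose. The median was 0.35 once GC and length trends were removed, with 5 still higher. HIF1A, the oxygen-regulated subunit of HIF-1, was at 23.8 and 24.2 RPKM in Ni-E, 80.3 and 75.4 in HCl3 and 25.3 and 27.9 in UT (log2 fold change 1.67 ± 0.08, adjusted P = 2.68e-97). EPAS1, which encodes HIF-2 alpha, rose from 9.91 and 10.6 to 19.3 and 18.8 RPKM (log2 fold change 0.88 ± 0.09, adjusted P = 9.7e-21), and ARNT2, a partner subunit, from 0.9 and 1.3 to 4.24 and 4.27 RPKM (log2 fold change 1.95 ± 0.17, adjusted P = 5.17e-29). The prolyl hydroxylase EGLN1 rose less (log2 fold change 0.70 ± 0.08, adjusted P = 8.13e-16) and was no longer called once GC and length trends were removed. The remaining members were not called: EGLN2, ARNT, HIF1AN, VHL, CITED2, EP300 and CREBBP lay between -0.23 for VHL and 0.55 for CITED2 on the log2 scale, and HIF3A was listed at 0. Among 34 iron- and oxoglutarate-dependent dioxygenases as a class, 6 rose and 0 fell by DESeq2, with a median of 0.12. The share called was near the 17.6% of all genes tested, of which 10.6% were higher. At an unadjusted P under 0.05, 4 members were lower, and edgeR called 0 lower. The 6 that rose included the collagen prolyl hydroxylase subunits P4HA1 (0.70 ± 0.08) and P4HA2 (0.88 ± 0.08) and the histone H3K9 demethylase KDM3A (0.91 ± 0.10). P4HA1, P4HA2 and KDM3A are also members of the hypoxia-inducible list, as are EGLN1 and EGLN3, so these lists are not independent. With GC and length trends removed, the median of the class was -0.08, with 5 higher and 1 lower, and without Ni-E replicate 2 there was also 1 lower.

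The promoter of CA9 is shown because CA9 had the largest change among called, well covered hypoxia genes with the motif. The motif was ACGTG, the core of the hypoxia response element, sought on both strands in the same window, where the palindrome CACGTG counts on both. It occurred in 21.6% of all promoters, in 14 of 23 matched hypoxia-inducible genes (60.9%) and in 9 of the 14 that had risen. The list was drawn up from known HIF targets, so the share describes the list. The 250 bases before the CA9 start, chr9:35673678-35673927 on the plus strand of GRCh38.p14, are given 5′ to 3′. The capitals mark the single match, which reads on the opposite strand.
CA9: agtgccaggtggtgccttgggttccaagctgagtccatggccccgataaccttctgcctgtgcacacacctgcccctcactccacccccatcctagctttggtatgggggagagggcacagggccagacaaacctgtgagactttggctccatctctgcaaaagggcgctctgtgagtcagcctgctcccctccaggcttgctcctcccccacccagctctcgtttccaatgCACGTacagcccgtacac

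A part of the glycolysis genes rose, and respiratory chain subunits had a negative median. Of 25 glycolysis and lactate genes, 9 rose and 2 fell, against 10.6% and 6.95% of all genes tested. The median of the list was 0.30. LDHA, lactate dehydrogenase A, was at 532 and 489 RPKM in Ni-E and 861 and 875 in HCl3 (log2 fold change 0.75 ± 0.08, adjusted P = 1.32e-19), whereas LDHB, its B subunit, fell from 666 and 592 to 389 and 393 RPKM (log2 fold change -0.72 ± 0.08, adjusted P = 4.99e-16). PGK1 (0.61 ± 0.07), PDK1 (1.07 ± 0.13), PFKFB4 (1.34 ± 0.14) and PKM (0.69 ± 0.08) rose. They encode phosphoglycerate kinase, a kinase that inhibits pyruvate dehydrogenase, a regulator of phosphofructokinase, and pyruvate kinase. PFKFB4 is also a member of the hypoxia-inducible list, so these 2 lists are not independent. PKM lies in a window of chromosome 15 with a median log2 fold change of 0.40, and neither PKM nor PGK1 was called after window medians were subtracted. GAPDH (2465 and 2236 RPKM in Ni-E, 2726 and 2903 in HCl3) and ENO1 (1578 and 1344, 1614 and 1676) were not called. The lactate transporter SLC16A1 was the other member that fell (log2 fold change -0.65 ± 0.08, adjusted P = 2.11e-15). Of 32 subunits of the respiratory chain 3 fell and 0 rose by DESeq2 (1 higher at an unadjusted P under 0.05, and 0 by edgeR), with a median of -0.34. The share that fell was near the 6.95% of all genes tested. A further 21 subunits had an adjusted P under 0.05 by DESeq2 at less than 1.5-fold. The 3 that fell were NDUFV2 (-1.08 ± 0.09), SDHB (-0.61 ± 0.09) and UQCRC1 (-0.70 ± 0.08), of complexes I, II and III. The number that fell was 6 without Ni-E replicate 2, without HCl3 replicate 2 or with TMM scaling. With GC and length trends removed it was 2 and the median -0.16, and SDHB was no longer called, while UQCRC1 lost its call after window medians were subtracted.

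**Figure D2:**
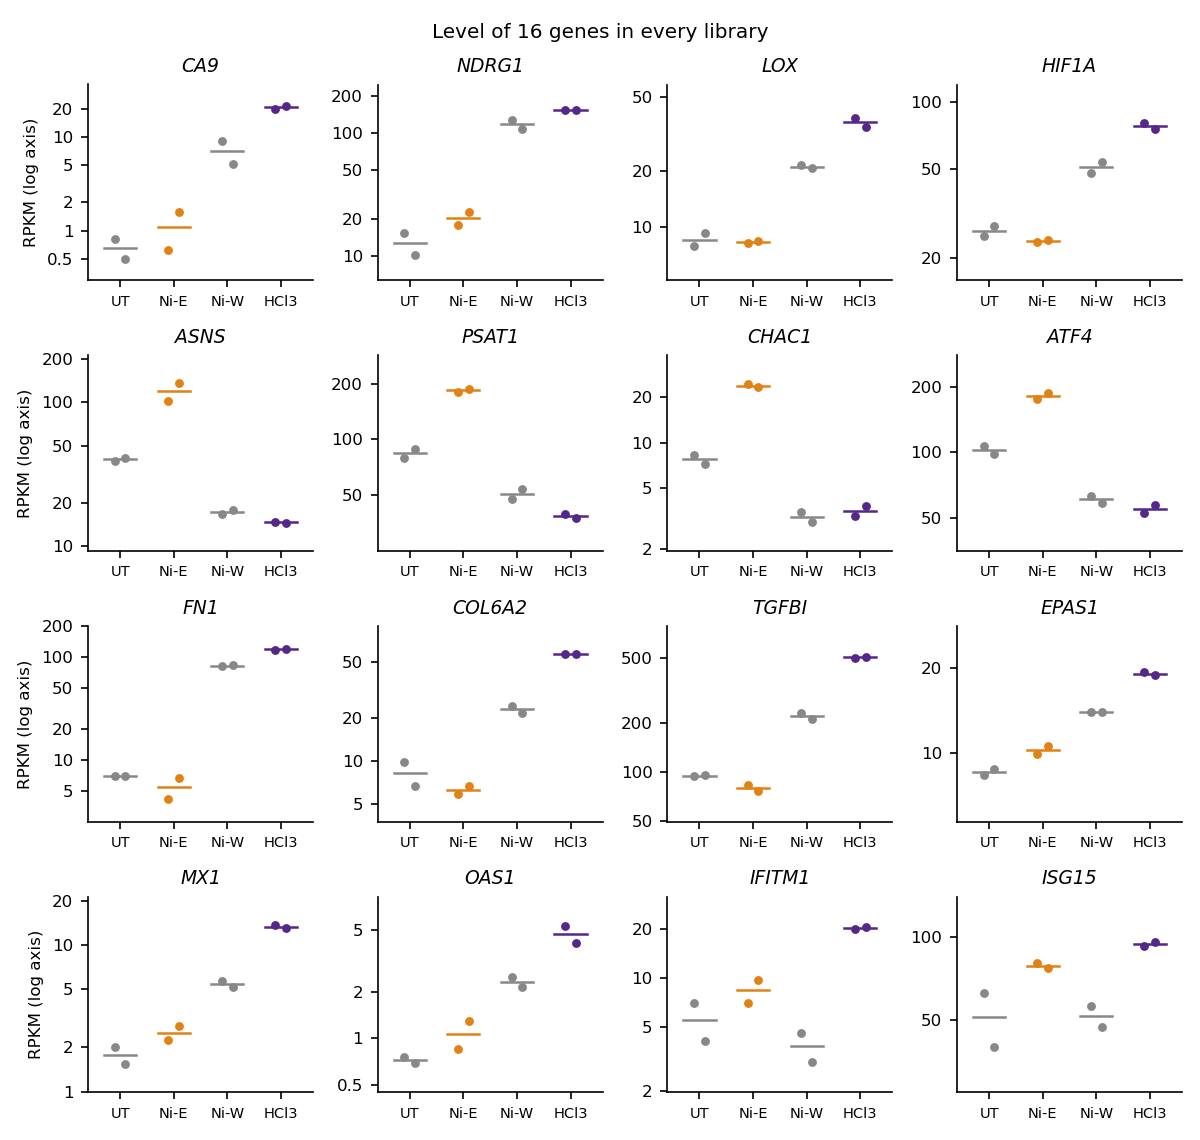
RPKM (log axes, 1 panel per gene) in each of the 8 libraries for 16 genes, where points are libraries and bars the group means. In the HCl3 and Ni-E columns the 2 groups do not overlap for any gene, as for 75.2% of all genes tested, ASNS, PSAT1, CHAC1 and ATF4 lie lower in HCl3, the others lie higher, and ISG15 was the 1 gene of the 16 that was not called.

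Most collagen genes and many other matrix genes rose in HCl3. Of 29 collagen genes, 21 rose and 1 fell, with a median log2 fold change of 1.38, and of 20 mesenchymal genes 11 rose and 1 fell, with a median of 1.15. Among all genes tested, 10.6% rose and 6.95% fell. FN1, fibronectin, stood at 4.13 and 6.65 RPKM in Ni-E and at 117 and 121 in HCl3 (log2 fold change 4.45 ± 0.32, adjusted P = 5.27e-43), against 6.97 and 6.99 in UT. COL6A2, a chain of the microfibrillar collagen VI, rose from 5.89 and 6.67 to 56.5 and 57.1 RPKM (log2 fold change 3.17 ± 0.09, adjusted P = 6.23e-254), and its partner COL6A1 from 24.5 and 26.8 to 69.4 and 69.5 RPKM (log2 fold change 1.43 ± 0.08, adjusted P = 1.61e-71). COL1A2, the second chain of collagen I, rose from 0.03 and 0.03 to 2.05 and 2.01 RPKM (log2 fold change 5.90 ± 0.44, adjusted P = 4.05e-38). The far more abundant COL1A1 was not called, at 178 and 337 RPKM in the Ni-E libraries, which lay apart, and 431 and 454 in HCl3. COL3A1 had no read in Ni-E and stood at 0.07 and 0.06 RPKM in HCl3, at least 8.44-fold higher than 3 reads over the group would give. The 1 collagen that fell was COL4A6 of basement membranes, from 1.72 and 1.77 to 0.95 and 1.02 RPKM (log2 fold change -0.84 ± 0.19, adjusted P = 4.14e-05), and the 1 mesenchymal gene was LUM, the proteoglycan lumican, from 0.35 and 0.91 to 0 and 0.01 RPKM, with 1 read in HCl3. On log2(RPKM + 1) limma called 11 collagens higher, and by DESeq2 14 and 15 were called higher without HCl3 replicates 2 and 1. Of the mesenchymal genes 7 rose without HCl3 replicate 1, and 7 by limma on the same scale. COL4A6 was not called without HCl3 replicate 1.

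Fibroblast markers shared genes with these lists, among them COL1A1, COL1A2, COL3A1 and LUM, so their changes are not a separate result. Summed over the 10 markers they were 325 and 501 RPKM in Ni-E and 641 and 670 in HCl3, of which COL1A1 gave the most, and 3 of the 8 that were tested rose while 1 fell. Without Ni-E replicate 2, 5 of them rose, and without either HCl3 library 1 did. DCN, which defines fibroblasts, was at 0 in all 4 libraries, and PDGFRB rose from 10.6 and 15.7 to 27.6 and 27.9 RPKM (log2 fold change 1.07 ± 0.26, adjusted P = 0.000225), a call that was lost without either HCl3 library. The part of other cells in the matrix gain was not tested. VIM, the mesenchymal intermediate filament vimentin and 1 of the 8 most abundant genes that rose, was at 992 and 827 RPKM in Ni-E and 1515 and 1527 in HCl3 (log2 fold change 0.73 ± 0.09, adjusted P = 2.19e-13), with 1417 and 1518 in UT, and was not called without Ni-E replicate 2.

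Many components and targets of TGF-beta signalling rose. Of 25 genes of the pathway and of YAP, 12 rose and 0 fell by DESeq2 (2 lower at an unadjusted P under 0.05, and 0 by edgeR), with a median of 0.70. The shares over all genes tested were 10.6% higher and 6.95% lower. TGFBI, a secreted matrix protein named for its induction by TGF-beta, rose from 83.6 and 76.2 to 499.7 and 513 RPKM (log2 fold change 2.65 ± 0.08, adjusted P = 2e-234), and SMAD3, a signal transducer of the receptor, from 15.3 and 16.1 to 48.1 and 49.0 RPKM (log2 fold change 1.61 ± 0.08, adjusted P = 4.1e-93). With GC and length trends removed 2 members were lower, and without Ni-E replicate 1 there was 1. Of 28 contractile actin genes 8 rose and 0 fell by DESeq2 (2 lower at an unadjusted P under 0.05, and 0 by edgeR), with a median of 0.39. They included TAGLN, transgelin, from 61.1 and 87.3 to 235 and 246 RPKM (log2 fold change 1.69 ± 0.23, adjusted P = 1.28e-11), and TPM1, tropomyosin 1 (log2 fold change 1.31 ± 0.07, adjusted P = 1.18e-67). TAGLN in UT was at 179 and 182 RPKM. Of 32 matrix proteases and inhibitors 13 rose and 2 fell (median 0.58), though 7 rose without HCl3 replicate 1. TLL1, a tolloid-like procollagen protease, was the steepest fall, from 1.22 and 1.34 to 0 and 0.01 RPKM, with 1 read in HCl3 and a ratio of 701-fold (125 to 27730). ANXA2, FSTL1 and PTRF, which encode a membrane-binding annexin, a secreted glycoprotein and the caveolar coat protein cavin-1, were among the 8 most abundant gains (0.71 ± 0.07, 0.59 ± 0.09 and 0.59 ± 0.08), and TMM scaling moved FSTL1 and PTRF below the 1.5-fold limit.

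EMT transcription factors and junction genes gave no single direction. Of 15 EMT factors that were tested 6 rose and 1 fell (median 0.79), but without HCl3 replicate 1 or 2 only 2 rose, and 0 fell whichever library was left out. The repressors SNAI1 (0.3 and 0.52 RPKM in Ni-E, 1.21 and 1.19 in HCl3, log2 fold change 1.53 ± 0.48, adjusted P = 0.00489) and SNAI2 (0.6 and 0.58, 1.42 and 1.38, log2 fold change 1.22 ± 0.37, adjusted P = 0.00363) were low throughout, and both lost the call in those fits. ZEB1, another repressor of E-cadherin, was at 2.1 and 1.7 RPKM in Ni-E and 2.51 and 2.36 in HCl3 and was not called. Of 24 epithelial genes 3 rose and 3 fell, with a median of 0.36, where 10.6% of all genes tested rose and 6.95% fell. The keratins KRT7 (358 and 207 RPKM in Ni-E, 412 and 438 in HCl3), KRT8 (243 and 219.6, 294 and 310.3) and KRT18 (191 and 151, 227 and 245) were abundant and not called, KRT19 rose from 1 read in Ni-E to 0.68 and 0.77 RPKM, and the tight junction gene CLDN1 fell (log2 fold change -0.77 ± 0.08, adjusted P = 3.59e-22). DSP, the desmosomal plaque protein desmoplakin, rose from 2.19 and 1.93 to 8.31 and 8.49 RPKM (log2 fold change 1.98 ± 0.11, adjusted P = 7.72e-68), while the desmosomal cadherin DSC2 fell from 2.08 and 2.63 to 1.22 and 1.13 RPKM (log2 fold change -1.02 ± 0.20, adjusted P = 1.48e-06) and DSG2 was not called. Of 11 tested desmosome genes, 3 rose and 2 fell. Without Ni-E replicate 1 the epithelial genes that rose were 5, and without Ni-E replicate 2 or HCl3 replicate 2 only 1 desmosome gene fell.

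Among adhesion and guidance receptors, several genes were on in 1 group and at or near 0 in the other. Of 13 cadherins 3 rose and 1 fell, against 10.6% and 6.95% of all genes tested. CDH4, R-cadherin, had no read in Ni-E and was at 0.44 and 0.44 RPKM in HCl3, at least 72.1-fold higher, and CDH11, a mesenchymal cadherin, went from 0.01 and 0.01 to 0.35 and 0.38 RPKM. CDH12, a brain cadherin, did the reverse, from 0.66 and 0.77 RPKM in Ni-E to no read in HCl3, at least 87.7-fold lower. The neural cadherin CDH2 was not called (54.0 and 57.5 RPKM in Ni-E, 70.7 and 67.4 in HCl3). ROBO1, a receptor of SLIT ligands, rose from 3 reads in Ni-E to 1.47 and 1.25 RPKM, a ratio of 252-fold (85.8 to 1223), and the ligand SLIT3 from no read to 0.39 and 0.41 RPKM, at least 98.9-fold, while the ligand NTN1, netrin-1, fell (log2 fold change -1.36 ± 0.23, adjusted P = 3.35e-08). In the guidance list of 29 genes, 9 rose and 3 fell (median 0.54), with 5 higher over genes of at least 1 RPKM. The median was 0.24 once GC and length trends were removed, with 8 higher and 3 lower. Of 29 integrins and laminins 13 rose and 2 fell (median 0.85). Removal of the same trends gave 11 higher and 3 lower, with a median of 0.58. ITGA4, the alpha-4 integrin that binds fibronectin, rose from 0.19 and 0.21 to 4.68 and 4.19 RPKM (log2 fold change 4.49 ± 0.21, adjusted P = 8.76e-95), the laminin chain LAMA4 from no read to 0.32 and 0.28 RPKM, at least 25.6-fold, and LAMA1 fell from 7.32 and 6.9 to 2.41 and 2.4 RPKM (log2 fold change -1.58 ± 0.11, adjusted P = 4.81e-47).

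In the CADM and nectin family of immunoglobulin adhesion molecules 1 of 7 tested members rose and 2 fell. Over all genes tested these shares were 10.6% and 6.95%. CADM3 rose from 2 reads in the Ni-E libraries to 2.17 and 2.42 RPKM, a ratio of 311-fold (85.7 to 2571), with 0 and 0.03 RPKM in UT. PVR (log2 fold change -0.63 ± 0.09, adjusted P = 2.36e-10), the poliovirus receptor, and PVRL4 (log2 fold change -1.56 ± 0.33, adjusted P = 1.59e-05), nectin-4, fell. CADM4, PVRL1, PVRL2 and PVRL3 were not called, and CADM1 and CADM2 were listed at 0 in both groups. Without Ni-E replicate 1 PVR lost its call, and without Ni-E replicate 2 the list had 2 members higher. CADM3 is also 1 of 7 genes that the study had singled out. ZEB1 was cited from its authors' earlier work. The other genes were examples from libraries of this series, so they are not independent of it. Of the 7 genes, 3 rose (CADM3, DSP and TAGLN) and 1 fell. The gene that fell was GATM of creatine synthesis, from 1.17 and 1.37 to 0.47 and 0.61 RPKM (log2 fold change -1.24 ± 0.36, adjusted P = 0.00215) against 0.07 and 0.04 in UT. GATM lost its call without Ni-E replicate 2 or either HCl3 library. SELENBP1, a selenium-binding protein, was at 4.52 and 5.36 RPKM in Ni-E and 3.78 and 4.09 in HCl3 and was not called, nor were ZEB1 and CDKN2B.

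**Figure D3:**
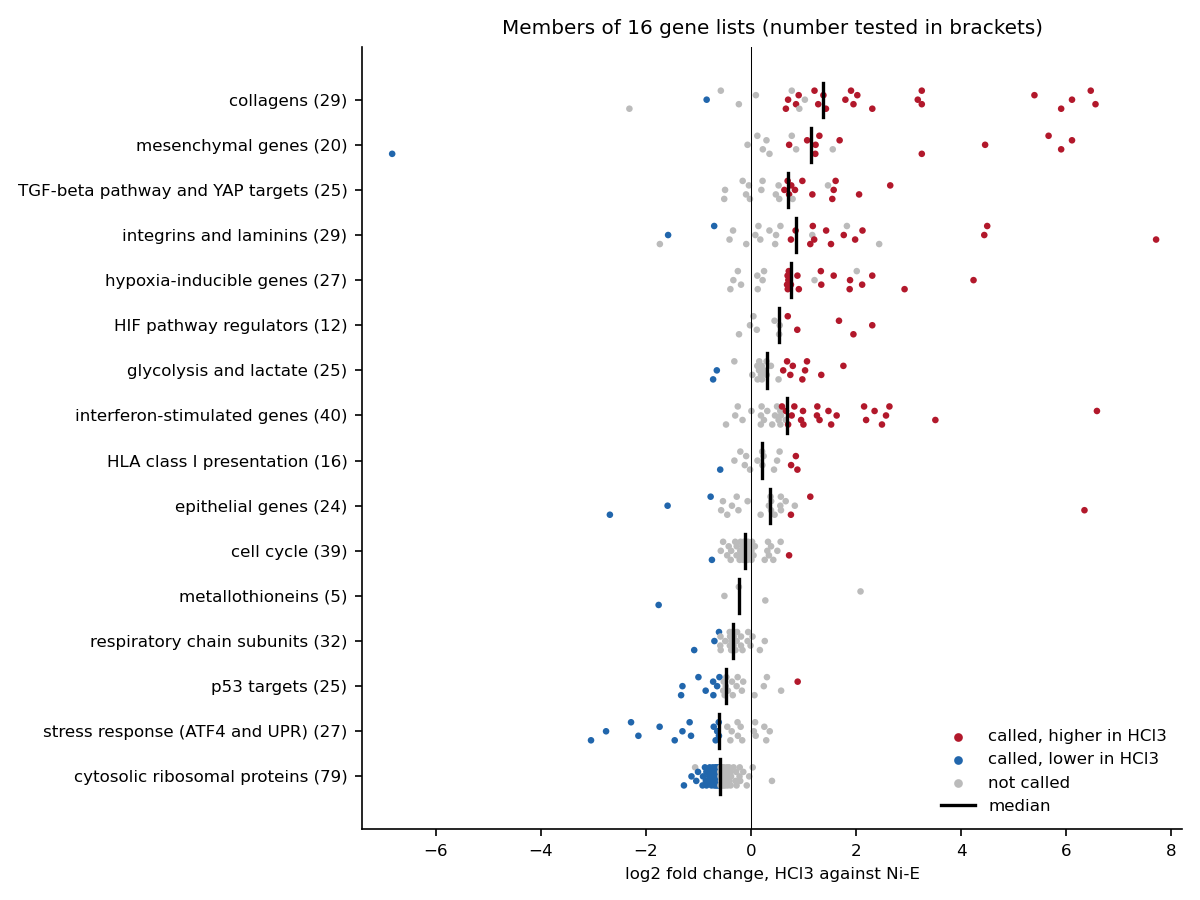
Log2 fold change of HCl3 against Ni-E (horizontal axis) for each tested member of 16 gene lists, with the number tested in brackets. Points are genes, coloured where called, and black bars are list medians, which run from 1.38 for collagens to -0.61 for the stress response. The ribosomal protein list was chosen after its values had been seen.

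A large part of the interferon-stimulated genes rose in HCl3. Of 40 members 22 rose and 0 fell by DESeq2, against 10.6% and 6.95% of all genes tested. The median was 0.69, and 3 members were lower at an unadjusted P under 0.05 and 0 by edgeR. The count of higher members depended on single libraries, since 14 rose without HCl3 replicate 1, 17 without Ni-E replicate 1 and 27 without Ni-E replicate 2. MX1, an antiviral GTPase, stood at 2.26 and 2.79 RPKM in Ni-E and 13.7 and 13.0 in HCl3 (log2 fold change 2.35 ± 0.15, adjusted P = 7.53e-51), and its relative MX2 at 0.63 and 1.04 and at 4.68 and 4.78 RPKM (log2 fold change 2.49 ± 0.23, adjusted P = 6.62e-25). OAS1, which makes the activator of RNase L, rose from 0.85 and 1.28 to 5.29 and 4.11 RPKM (log2 fold change 2.15 ± 0.30, adjusted P = 1.34e-11), and IFITM1 (hg19 chromosome 11, 313991 to 315272, plus strand), a membrane protein that blocks virus entry, from 7.01 and 9.81 to 20.0 and 20.6 RPKM (log2 fold change 1.26 ± 0.19, adjusted P = 1.45e-09). Both HCl3 libraries were above both Ni-E libraries for all 4, as for all genes called higher. The largest fitted changes were of genes at very low levels: CMPK2 went from no read to 0.15 and 0.17 RPKM, RSAD2 from 0.02 and 0.01 to 0.2 and 0.23, and IFI44L from 0.01 and 0.03 to 0.19 and 0.08, and these 3 lost the call when either HCl3 library was left out. The most abundant members ISG15 (80.4 and 77.0 RPKM in Ni-E, 92.6 and 95.8 in HCl3) and IFITM3 (163 and 172, 230.2 and 246) were not called. In UT, MX1 was at 2.03 and 1.54 RPKM and IFITM1 at 7.02 and 4.07. Of 16 genes of HLA class I presentation 3 rose and 1 fell, but 0 rose without Ni-E replicate 1, HCl3 replicate 1 or HCl3 replicate 2, and 5 without Ni-E replicate 2. IFITM1 and HLA genes have close paralogues, and reads aligning to several places had been removed, so their levels are uncertain.

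The promoter of IFITM1 is shown because, among called interferon genes averaging 200 or more normalized reads, it had the largest change of those with the motif before the start site. MX1 changed more, and its only match lay after the start site. The motif was GAAANNGAAA, a core of the interferon-stimulated response element, sought on both strands in the same window. It occurred in 3.65% of all promoters, in 19 of 32 matched interferon-stimulated genes (59.4%) and in 11 of the 17 that had risen. As above, such genes are known by this element, and the share describes the list. The 250 bases before the IFITM1 start, chr11:313790-314039 on the plus strand of GRCh38.p14, are given 5′ to 3′. The match that lies wholly within them is in capitals. A second match begins at -6 relative to the start site, runs across it and is not marked.
IFITM1: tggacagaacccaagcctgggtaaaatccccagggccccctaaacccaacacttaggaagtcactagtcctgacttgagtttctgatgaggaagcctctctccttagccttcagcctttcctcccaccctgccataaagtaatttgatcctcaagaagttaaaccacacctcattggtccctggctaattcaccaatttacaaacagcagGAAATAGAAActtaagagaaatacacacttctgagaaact

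Genes that bind or carry metals were called at shares near the 17.6% of all genes tested. Of 12 metallothioneins, the small cysteine-rich proteins that bind zinc and other metals, 5 were tested, 1 fell and 0 rose by DESeq2 (0 higher at an unadjusted P under 0.05, and 0 by edgeR). MT1E was at 52.0 and 59.6 RPKM in Ni-E, 16.5 and 16.8 in HCl3 and 29.5 and 17.6 in UT (log2 fold change -1.76 ± 0.15, adjusted P = 1.78e-31). MT2A, the most abundant, was at 397 and 496 RPKM in Ni-E and 306 and 328 in HCl3 and was not called, nor were MT1X (14.5 and 15.0, 12.02 and 13.29), MT1F (3.82 and 3.8, 5.17 and 4.11) and MT1A. These genes are close paralogues, and their reads are uncertain for the same reason as those of IFITM1. Of 24 zinc and metal transporters 3 rose and 1 fell. SLC39A8, an importer of zinc and manganese, rose from 0.75 and 0.62 to 3.32 and 3.31 RPKM (log2 fold change 2.23 ± 0.24, adjusted P = 4.28e-19), and SLC30A1, the plasma membrane zinc exporter, fell from 15.6 and 13.0 to 9.09 and 8.81 RPKM (log2 fold change -0.69 ± 0.14, adjusted P = 7.29e-06). Of 14 iron handling genes 2 rose and 0 fell by DESeq2 (5 lower at an unadjusted P under 0.05, and 1 by edgeR). These were SLC40A1, ferroportin (log2 fold change 3.40 ± 0.43, adjusted P = 6.39e-14), and CYBRD1, a ferric reductase (log2 fold change 1.23 ± 0.08, adjusted P = 7.19e-46). The transferrin receptor TFRC was at 101 and 95.6 RPKM in Ni-E and 70.1 and 67.3 in HCl3 and was not called. NRF2 targets, the antioxidant genes, gave 2 that rose and 2 that fell of 26, and heat shock proteins 2 and 2 of 23. These small counts moved with single libraries. Without Ni-E replicate 1, 2 metallothioneins and 0 zinc and metal transporters fell, and without Ni-E replicate 2, 1 iron handling gene fell. Leaving out any library left 1 NRF2 target lower and 1 heat shock protein higher.

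Ribosomal protein genes were lower in HCl3 by small amounts. This list was taken up after its members had been seen among the most abundant losses. Of 79 tested members 38 fell and 0 rose by DESeq2 (1 higher at an unadjusted P under 0.05, and 0 by edgeR), against 6.95% and 10.6% of all genes tested. The median of the members was -0.58, close to the 1.5-fold limit. The count moved from 11 to 53 across the alternative fits: 53 without Ni-E replicate 2, 19 without Ni-E replicate 1, 25 without HCl3 replicate 1, and 15 with GC and length trends removed. RPL13A fell from 239 and 215 to 90.7 and 98.6 RPKM (log2 fold change -1.28 ± 0.09, adjusted P = 5.55e-41), and RPL22L1, a paralogue of a large subunit protein, from 24.0 and 17.4 to 9.38 and 9.73 RPKM (log2 fold change -1.13 ± 0.16, adjusted P = 7.07e-12). The most abundant genes that fell included RPL27, RPL35A, RPS6, RPS14, RPS16, RPS18 and GNB2L1, whose product RACK1 sits on the small subunit, with log2 fold changes from -0.78 for RPL35A and -0.88 for RPS6 to -0.59 for RPS16. Across expressed genes the log2 fold change correlated with transcript length (Spearman's rho 0.283 across genes, which are not independent replicates). The part of transcript length in this result was not tested beyond the fit just given. Ribosomal proteins also have many processed pseudogenes.

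The remaining lists are given by their counts, beside the 17.6% of genes called over all tested, 10.6% higher and 6.95% lower. Of 37 chromatin and DNA methylation genes 2 rose and 1 fell, and of 32 genes of cholesterol and fatty acid synthesis 1 rose and 2 fell. Of 29 inflammatory cytokines and chemokines 4 rose and 5 fell. Of 30 WNT genes 7 rose and 2 fell, of 18 Notch genes 4 and 1, of 13 ERBB receptors and ligands 2 and 1, and of 22 replication-dependent histones 5 and 0 by DESeq2 (1 lower at an unadjusted P under 0.05, and 2 by edgeR). Of 27 HOX genes 5 rose and 1 fell, with HOXA10 up from 0.37 and 0.35 to 2.41 and 2.62 RPKM (log2 fold change 2.81 ± 0.31, adjusted P = 1.5e-17) and HOXB9 down from 11.4 and 11.2 to 3.4 and 3.67 RPKM (log2 fold change -1.69 ± 0.14, adjusted P = 6.2e-32). Without HCl3 replicate 1, 2 HOX genes, 2 cytokines, 3 histones and 1 chromatin gene rose. Without Ni-E replicate 2, 9 cytokines and 5 genes of lipid synthesis rose, and without HCl3 replicate 2, 0 genes of lipid synthesis rose and 2 cytokines fell. Without Ni-E replicate 1, 3 HOX genes, 3 genes of lipid synthesis and 4 of the ERBB list rose and 3 chromatin genes fell. Among genes of at least 1 RPKM, 1 HOX gene rose.

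Called genes were spread unevenly over the genome. Over 12057 genes that averaged 50 or more normalized reads, 10.6% were higher and 8.24% lower, and the median log2 fold change was -0.03. On chromosome 13 the median was 0.37, with 59 genes higher and 2 lower of 208, and on chromosome 15 it was 0.35, with 95 higher and 5 lower of 390. Chromosome 7 had 95 genes higher and 15 lower of 554. In contrast, chromosome 3 had a median of -0.20 with 51 higher and 126 lower of 687, chromosome 18 a median of -0.19 with 10 higher and 38 lower of 176, and chromosome 17 had 55 higher and 121 lower of 754. In 280 windows of 10 Mb, medians ran from -0.62 to 0.64, 25 windows lay above 0.3 and 19 below -0.3. The 2 highest, 0.636 and 0.633, lay on chromosome 2 at 180 to 190 and 160 to 170 Mb, though that chromosome's median was 0.07. The falls on chromosomes 3, 17 and 18 lay mainly in a part of each. Windows from 0 to 20 Mb had medians of -0.48 and -0.47 on chromosome 17 and -0.49 and -0.57 on chromosome 18. On chromosome 3, windows from 0 to 70 Mb lay between -0.62 and -0.25 and those from 90 Mb between -0.20 and 0.11. With GC and length trends removed the medians stayed at 0.34 for chromosome 13 and 0.29 for chromosome 15. After each window's median was subtracted, 2254 genes were called, 1540 higher and 714 lower. For Ni-W against the same Ni-E libraries, medians were 0.50 on chromosome 13, 0.46 on 15 and 0.14 on 7 (0.21 in HCl3). On chromosomes 3 and 18 the Ni-W medians were 0.004 and 0.01, and on 17 it was -0.12 (-0.13 in HCl3).

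**Figure D4:**
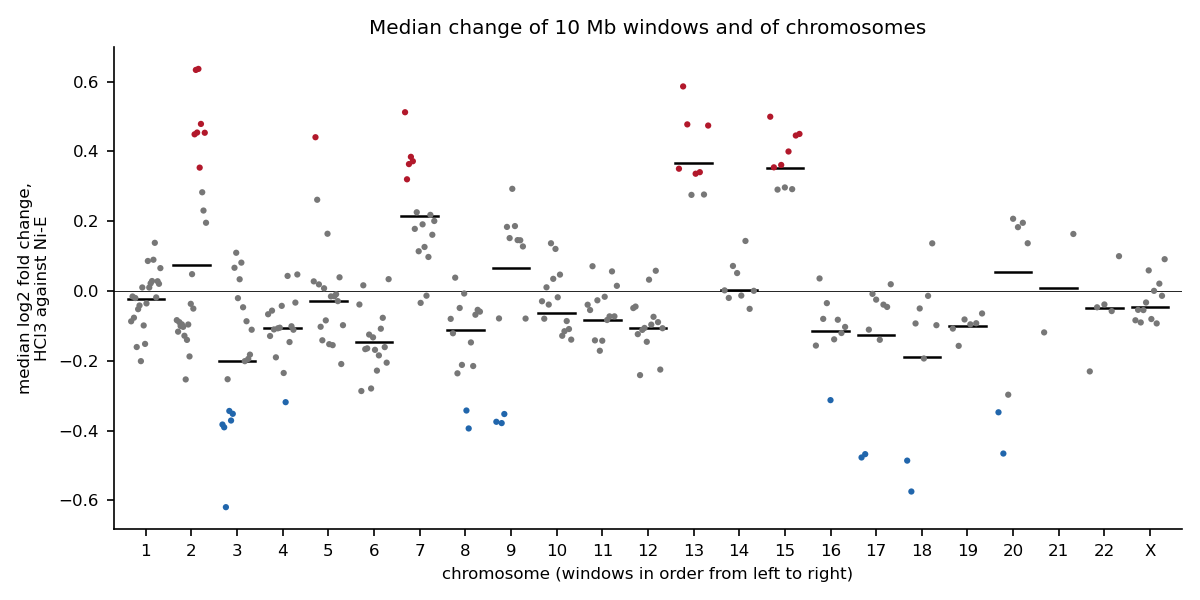
Median log2 fold change of HCl3 against Ni-E in 280 windows of 10 Mb, in order along chromosomes 1 to 22 and X. Each point is the median of at least 10 genes. Runs of windows above 0 can be seen on chromosomes 13 and 15 and late on chromosome 2. Runs below 0 can be seen at the start of chromosomes 3, 17 and 18.

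MGMT and GALC were among the 99 genes called higher with no read in Ni-E, and PAGE5 among the 31 called lower with none in HCl3. MGMT, which repairs alkylated guanine in DNA, had no read in either Ni-E library and was at 3.55 and 3.84 RPKM in HCl3, at least 119-fold higher. GALC, the lysosomal galactosylceramidase, had none in Ni-E and was at 2.41 and 2.51 RPKM in HCl3, at least 241-fold higher, and PAGE5, a cancer-testis gene of the X chromosome, went from 8.87 and 8.26 RPKM to no read, at least 131-fold lower. PAGE5 was no longer called with all 8 libraries in one fit (adjusted P = 0.0829). In UT cells MGMT, like GALC, was also at 0, whereas PAGE5 was at 0.48 and 0 RPKM. CCNA1, the germ line cyclin A1, rose from 0.11 and 0.24 to 2.98 and 3.16 RPKM (log2 fold change 4.36 ± 0.43, adjusted P = 3.59e-22).

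Ni-W, the other washed-out population, was set beside HCl3, and both were compared with the same 2 Ni-E libraries, so the 2 sets of calls are not independent. For Ni-W against Ni-E, 15638 genes were tested and 3283 were called (21.0%), 1870 of them higher (12.0%) and 1413 lower (9.04%). In that comparison the stress response had 15 genes lower and 0 higher of 27, collagens had 17 higher and 0 lower, hypoxia-inducible genes 10 higher and 4 lower, and interferon-stimulated genes 10 higher and 7 lower. The test of the difference between both populations is HCl3 against Ni-W, where 716 of 14605 genes were called (4.90%). By that test CA9 was higher in HCl3 (8.95 and 5.12 RPKM in Ni-W, log2 difference 1.54, adjusted P = 0.000945), as were LOX (21.5 and 20.8 RPKM in Ni-W), TGFBI (232 and 212) and COL6A2 (24.6 and 22). MX1 was at 5.72 and 5.16 RPKM in Ni-W and IFITM1 at 4.58 and 3.04, both below HCl3 (adjusted P = 8.64e-25 and 4.37e-29). The order reversed for DSC2 (6.23 and 5.97 RPKM in Ni-W), ROBO1 (5.44 and 5.49) and CADM3 (6.98 and 6.49), which were higher in Ni-W. ASNS, PSAT1, CHAC1 and ATF4 were not called between HCl3 and Ni-W, with ASNS at 16.8 and 17.8 RPKM in Ni-W.

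The sources do not say whether the strand of reads was used in the counting. HIF1A, ARNT2, P4HA2, SLC7A11, SLC16A1, COL3A1, TAGLN, VIM, ITGA4, ROBO1, SLIT3, CADM3, CDH12, DSC2, PVR, RB1, NTN1, LYPD1, DCDC2, HOXA10, NDUFV2 and RPL35A, and among genes not called CDKN2A, CDKN2B, DSG2, ENO1, CADM2, HIF3A, KRT8 and KRT18, overlap a gene on the opposite strand. If strand was not used, their reads cannot be told from those of the partner, so their levels are uncertain. On their own strand HOXA10 overlaps HOXA10-HOXA9, EGLN2 overlaps RAB4B-EGLN2 and RPL13A overlaps RPL13AP5, and the split of reads within each of these pairs is uncertain. The smallest P value that an exact permutation of 2 against 2 libraries can give is 0.333, so all tests rest on the spread that DESeq2 shares across genes, which measures the variation between these libraries.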

How the data were processed

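RNA had been isolated as total RNA with a silica column kit, and libraries were made with the Illumina TruSeq RNA kit. The authors aligned reads to hg19 (GRCh37) with STAR 2.4, dropped multi-hits and assigned the other reads to RefSeq genes. The deposited tables of each library gave whole-number counts per gene and RPKM, both made by the authors, and strand use in the counting was not given in the sources used here. Rows of 1 gene were joined to 25411 genes. Library totals were 34604295 and 33985930 reads for Ni-E and 36742903 and 38462224 for HCl3. With genes pooled, counting error was small beside the spread between libraries, which need not hold for genes of few reads.

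Counts of the 4 libraries were tested with DESeq2 1.42.0 in R 4.3.3 without covariates, as in the study's methods. Genes with a Benjamini-Hochberg adjusted P value under 0.05 and at least a 1.5-fold difference were called. Log2 fold changes are given ± SE, and adjusted P values in the text are from DESeq2 over all genes tested. Where a group had no read, the fold is a lower bound against 3 reads over the group, and with 1 to 3 reads a ratio with an exact 95% interval for counting error. Gene lists were described by counts and medians only. The lists and the comparison were chosen with earlier results of these data known.

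Genes were named by rule: the 8 largest changes each way among genes averaging 200 or more normalized reads, the 8 most abundant called genes each way, up to 3 called members each way and the 3 most abundant members of each list, all members of 5 short lists, and the largest called genes of chromosomes. ATF4, DDIT4, FN1, IFITM1, LOX, MX1, OAS1, TRIB3 and VEGFA, the ribosomal protein list and the motifs were chosen after values had been seen. Alternatives were edgeR 4.0.16, limma 3.58.1 on log2 RPKM after adding 1 or 0.1, other scalings and filters, removal of GC and length trends or window medians, and leaving out each library. The tests were checked on simulated counts with known changes. There, a planted trend with transcript length gave DESeq2 false calls that were gone once the trend was removed. The removal fitted the same length that had been planted, and both groups were drawn with the same spread. The simulation therefore cannot tell how well such trends are removed in these libraries. Promoters came from RefSeq tables on GRCh38.p14, and coordinates of genes are those of the deposited hg19 tables. Histone modification data of the study were not used here. Some genes picked by these rules are not reported here.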

Additional observations from a re-analysis of the deposited data

Results flagged for a closer look

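For 26 called genes named in the text, HCl3 also differed from Ni-W, the other washed-out population, in DESeq2's test of those 2 groups. They are given because the changes against Ni-E of both populations then differ, and the log2 differences of HCl3 minus Ni-W follow. HCl3 was higher for IFI44L (6.12), TRIM58 (4.38), COL1A2 (3.21), IFITM1 (2.38), CDH4 (2.23), HOXB9 (1.75), EGLN3 (1.74), CA9 (1.54), MX2 (1.47), COL6A2 (1.27), MX1 (1.22), TGFBI (1.18) and OAS1 (1.01). Smaller differences in the same direction were found for SLC38A5 (0.81), LOX (0.77), VIM (0.73), MT1E (0.73), GALC (0.65) and LYPD1 (0.65). HCl3 was lower than Ni-W for DSC2 (-2.40), ROBO1 (-2.02), CADM3 (-1.57), CDH11 (-1.52), CCNA1 (-1.32), SLC39A8 (-0.75) and ITGA4 (-0.64). The labels give experiment numbers for HCl3 and none for Ni-W, and whether these populations were grown or sequenced together is not known.

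The populations lay on opposite sides of Ni-E for IFITM1, whose Ni-W libraries (4.58 and 3.04 RPKM) lay below the Ni-E libraries (7.01 and 9.81) and whose HCl3 libraries (20.0 and 20.6) lay above them, and DSC2, for which Ni-W (6.23 and 5.97) lay above Ni-E (2.08 and 2.63) and HCl3 (1.22 and 1.13) below. For VIM the Ni-W libraries (816 and 992 RPKM) overlapped those of Ni-E (992 and 827), and HCl3 (1515 and 1527) lay above both.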

How the results depend on the processing

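The count of 2742 called genes, 1657 higher and 1085 lower, kept more higher than lower genes under all 16 alternative fits, though not once the limit on fold was dropped, and a call of the reverse sign was given to 0 genes by any of them. On log2(RPKM + 1), limma called 1655 genes, 929 of them higher. A 2-fold limit left 1379 genes (1056 higher, 323 lower), and no limit on fold gave 6022 (2943 higher, 3079 lower). Subtracting the median of each 10 Mb window left 714 lower genes. Leaving out 1 library, where the lone library of a group was assumed to vary like the other group, gave 1755 to 2753 called genes, 999 to 1604 higher and 756 to 1149 lower. edgeR called 3222 genes and shared 97.5% of the 2742. Among alternatives that moved the counts less than 1.5-fold, removing GC and length trends gave 2612 genes and genes of at least 1 RPKM 1939.

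Libraries carried no replicate number beyond the suffix of the second library in each group, and deviations of the libraries with the same suffix were unrelated (r = 0.0011 over 13883 genes), so they do not pair the samples. With that suffix as a replicate block 2300 genes were called, and IFI44L, CDH12 and SLIT3 lost their calls (adjusted P from 0.0514 to 0.0726). The block gave 2139 when GC and length trends were removed as well.

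Of 110 called genes named in the text, 74 were called under every alternative fit and 0 reversed. Without Ni-E replicate 1 the calls of FSTL1, PTRF, RPL27, RPS14, RPS16, SDHB, IFI44L, SNAI1, PVR, CDKN2C and SLC30A1 were lost, with adjusted P from 1.78e-15 to 0.124 and absolute log2 fold changes from 0.47 to 2.16. Without Ni-E replicate 2 those of VIM, PGK1 and GATM were lost, with adjusted P from 1.03e-21 to 0.0723 and absolute log2 fold changes from 0.55 to 1.15. Without HCl3 replicate 1 the calls of FSTL1, RPS14, RPS16, SDHB, CDKN1A, CMPK2, RSAD2, IFI44L, COL3A1, COL4A6, PDGFRB, SNAI1, SNAI2 and GATM were lost, with adjusted P from 0.000373 to 0.524 and absolute log2 fold changes from 0.54 to 6.67. Without HCl3 replicate 2 those of PTRF, CDKN1A, CMPK2, RSAD2, IFI44L, COL3A1, PDGFRB, SNAI1, SNAI2 and GATM were lost, with adjusted P from 0.000226 to 0.192 and absolute log2 fold changes from 0.55 to 6.50. With 2 libraries a group, genes of few reads had the widest errors, and changes under 1.5-fold were not called at any depth.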
